A study of Mus musculus with 23 samples.

Results

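The 44 genes described here encode proteins that make ribosomes in the nucleolus. They were named by symbol, from their known roles, and each was looked up in the deposited gene counts through its Ensembl gene. Of the 44, 43 had a row among the 36814 genes of the tables. Noc2l had no matching row and was not analysed here. The 43 comprise 3 subunits of RNA polymerase I, 16 factors of the small ribosomal subunit, 12 of the large subunit, 8 proteins of small nucleolar ribonucleoproteins (snoRNPs) and 4 abundant nucleolar proteins that act at several steps. All 43 passed the filter for low counts.

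The cells were F9, an embryonal carcinoma line from a mouse tumour whose cells become extraembryonic endoderm in all-trans retinoic acid (RA). Messenger RNA was sequenced from 4 libraries at 0 h, from 2 libraries each after 6, 12, 24 and 48 h of RA at 1e-07 M, and from 1 library each after 24 and 48 h of dimethyl sulfoxide (DMSO) at 0.001%. DMSO is the solvent of RA, and there was no DMSO library at 6 or 12 h. The series holds 23 samples, and its 8 ChIP libraries of RA and retinoid X receptors and 1 total chromatin library were not used here. F9 is a single line, and the labels do not name separate cultures. The p-values therefore reflect how much these libraries scatter, and that scatter may be technical.

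Ribosome production starts when polymerase I transcribes a long precursor RNA in the nucleolus. The box C/D snoRNPs (Fbl, Nop56, Nop58) methylate it and the box H/ACA snoRNPs (Dkc1, Gar1, Nhp2, Nop10) turn uridines into pseudouridines. The small subunit processome and the large subunit assembly factors then fold, cut and export the parts. These genes are known to be high in fast-growing cells and to be among the targets of MYC, which binds the E-box CACGTG. Neither ribosomal RNA nor ribosome output was measured in these libraries.

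Promoter windows in RefSeq (build GRCm38.p6), running from 250 bases before to 50 after each start, were matched for 38 of the 44 members, as 41 windows. Rrs1, Gnl2, Bop1, Fbl, Npm1 and Rrp12 had none. The E-box, a palindrome and so the same on both strands, was present in 8 of the 41 windows (19.5%), against 7.15% of all 32851 windows in the table and 9.82% of the windows of genes tested. The 8 windows are shown because they are the members whose promoters carry the MYC-type site. Each is written 5′ to 3′ on the strand of its gene, with the E-box in capitals, and is cut where the window ends.
Imp4 (chr1:34439696-34439725, plus strand): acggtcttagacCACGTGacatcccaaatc
Nop2 (chr6:125131811-125131840, plus strand): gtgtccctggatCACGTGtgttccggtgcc
Utp20 (chr10:88826765-88826789, minus strand): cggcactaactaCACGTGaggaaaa
Pes1 (chr11:3963965-3963994, plus strand): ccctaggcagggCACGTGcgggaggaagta
Mybbp1a (chr11:72441355-72441376, plus strand): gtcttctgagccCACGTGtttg
Tsr1 (chr11:74898092-74898121, plus strand): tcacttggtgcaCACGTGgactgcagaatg
Utp18 (chr11:93885769-93885798, minus strand): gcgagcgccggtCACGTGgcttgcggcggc
Wdr43 (chr17:71616220-71616249, plus strand): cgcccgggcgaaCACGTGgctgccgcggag

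Counted from 0 at the start base, the E-box began at -121 in Imp4, -60 in Nop2 and -20 in Utp18. In Pes1, Wdr43, Tsr1, Utp20 and Mybbp1a it began at 2, 17, 24, 37 and 40, downstream of the start. The motif CCGGAAG, bound by ETS factors, was found on either strand in 14 windows (34.1%, against 8.86% of all windows and 16% of those of genes tested). TCGCGA, which is its own reverse complement, was found in 4 windows (9.76%, against 2.5% and 4.65%), those of Mybbp1a, Nop58, Polr1c and Tsr1. AGGTCA followed after 5 bases by AGGTCA, the classical retinoid response element, was in 0 member windows on either strand and in 0.00913% of all windows. These are letter matches only, and binding was not measured at them here.

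Some of the genes share another feature that did not enter their choice. In the same RefSeq annotation 7 of the 43 members (16.3%) hold at least 1 snoRNA gene within their span, against 2.44% of 13135 protein-coding genes tested. Nop56 holds 5, Nop58 4, Gnl3 and Wdr43 3 each, Ncl 2, and Dkc1 and Tsr1 1 each. The snoRNAs themselves were not analysed here.

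Counts on genes ran from 7.079 to 10.949 M (mega) a library, and the libraries fell into 2 sets that cross the time points. Set 1, with a higher share of reads given to no feature (57.3 to 59.43%, against 52.51 to 53.77% in set 2), holds the number 1 library of 0 h and of each RA time and both DMSO libraries. Set 2 holds the rest. Changes below are log2 fold changes ± approximate standard error from 1 edgeR quasi-likelihood fit of all 14 libraries with a term for the set, and a gene is called at a Benjamini-Hochberg adjusted p under 0.05 over all 16155 genes tested. Levels are counts scaled to a common library size by TMM (CPM), written in the order of the replicate numbers. CPM values are shares of a library, so less of a transcript per cell and fewer cells that carry it cannot be told apart. Since gene lengths were not used, no level is compared between genes.

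The members' summed level fell in steps. It was 14824, 14363, 16559 and 15134 CPM at 0 h, 13914 and 13374 at 6 h, 12373 and 12083 at 12 h, 7991 and 8536 at 24 h, and 6303 and 7258 at 48 h. It was 13992 CPM after 24 h and 13114 after 48 h of DMSO. Every RA library lay below every 0 h library, the 24 and 48 h RA libraries lay well below the rest, and both DMSO libraries lay just under the 0 h range. The 6 h RA libraries lay between those of DMSO, so the 6 h sum was not set apart from solvent.

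**Figure D1:**
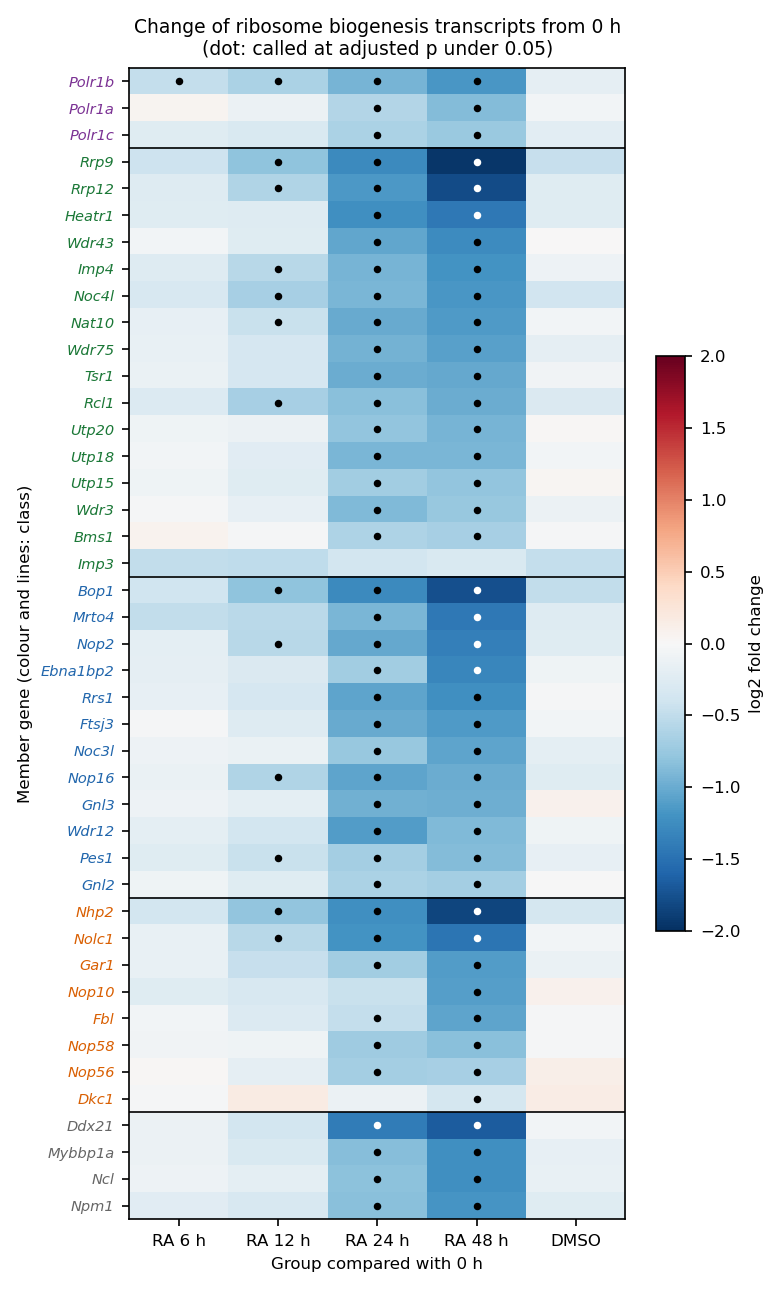
Log2 fold change from 0 h (colour, from -2.0 blue to 2.0 red) of the 43 members (rows, ordered by class and by their 48 h change) after 6, 12, 24 and 48 h of RA and in DMSO (mean of 24 and 48 h). A dot marks a gene called at an adjusted p under 0.05: 1, 13, 40 and 42 members at the 4 RA times and 0 in DMSO.

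Of the 43 members 1 was called lower at 6 h, where 1.51% of all genes tested were called lower. At 12 h 13 were lower (all genes: 5.31%), at 24 h 40 were (13.5%) and at 48 h 42 were (22.9%). No member was called higher at an RA time (all genes: 4.1, 7.38, 15.5 and 25.8%). The median change of the members was -0.15, -0.32, -0.91 and -1.10 at 6, 12, 24 and 48 h, while that of all genes tested lay between -0.01 and 0.02. The 6 h share is close to the background, whereas the later shares lie above it. Without scaling by TMM, the median of all genes shifted to 0.11 at 24 h and 0.18 at 48 h and that of the members to -0.77 and -0.93.

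Separate readings of the sets gave the same order. Members below the 0 h level in both sets numbered 31 of 43 at 6 h, 41 at 12 h, 42 at 24 h and 42 at 48 h, against 31.3, 33.7, 32.9 and 38.4% of all genes. Both RA libraries lay below all 4 of the 0 h libraries for 4, 21, 35 and 41 members (all genes: 8.23, 12.2, 14.8 and 22.7%). At 6 h this last share is close to the background. In set 1 the reading rests on 1 library of 0 h, and each DMSO library also lay below it for 37 of 43 members. The member that did not lie below 0 h in both sets at 24 and 48 h was Imp3.

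The calls up to 12 h rest on few libraries. The 12 h count was 2 without replicate 1 of 12 h, 0 without replicate 2, 0 within set 2 alone and 0 in the fit without the set term. The counts at 24 and 48 h were 36 to 40 and 40 to 42 with any 1 library left out, 31 and 41 within set 2, and 29 and 37 without the set term.

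Of the polymerase I subunits, 1 was called at 6 h and the other two were first called at 24 h. Polr1b (ENSMUSG00000027395), which forms the catalytic centre together with Polr1a, stood at 186, 165, 186 and 180 CPM at 0 h, 141 and 122 at 6 h, 131 and 106 at 12 h, 98.1 and 94.1 at 24 h, and 80.2 and 82 at 48 h. The DMSO libraries of 24 and 48 h held 172 and 165 CPM. Both 6 h libraries therefore lay under the whole 0 h range, and each later pair lay lower again, while DMSO stayed within or at the edge of that range. The change was -0.48 ± 0.12 at 6 h (edgeR quasi-likelihood, Benjamini-Hochberg adjusted p = 0.0274), -0.63 ± 0.12 at 12 h (adjusted p = 0.00326) and -1.17 ± 0.12 at 48 h (adjusted p = 4.48e-06), which left 44.3% of the 0 h level. The 6 h call was lost without the set term, with the replicate block, within set 2, without replicate 4 of 0 h and without either 6 h library, at an adjusted p of up to 0.391. The 12 h call was lost without the set term, within set 2 and without replicate 2 of 12 h (up to 0.157).

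Polr1a, the largest subunit, held 133, 108, 132 and 126 CPM at 0 h, 142 and 122 at 6 h, 131 and 105 at 12 h, 77.9 and 91.5 at 24 h, 78.3 and 63.1 at 48 h, and 134 and 126 in DMSO. Both of its libraries lay under the 0 h range from 24 h, when it had fallen by 0.59 ± 0.14 on the log2 scale (edgeR, adjusted p = 0.00669). Polr1c, a subunit that polymerase III also uses, held 204, 157, 196 and 171 CPM at 0 h, 196 and 142 at 6 h, 192 and 131 at 12 h, 160 and 101 at 24 h, 143 and 97.8 at 48 h, and 192 and 208 in DMSO. Its set 1 libraries lay above those of set 2 at every time, and within each set it declined to a 48 h change of -0.74 ± 0.13 (edgeR, adjusted p = 0.0005). All 3 subunits were called at 24 and 48 h. The 24 h call of Polr1a was lost without the set term, within set 2 and without replicate 1 of 24 h (up to 0.205). That of Polr1c was lost without the set term and without replicate 2 of 24 h (up to 0.268), and its 48 h call without the set term (0.11).

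Small subunit factors gave 0 calls of 16 at 6 h, 6 at 12 h, 15 at 24 h and 15 at 48 h, with medians of -0.16, -0.33, -0.93 and -1.06. At 6 h 1 of the 16 had an unadjusted p under 0.05 and DESeq2 called 1 member of any class. Over all classes 5 of 43 members had such a p at 6 h, against 2712 of the 16155 genes tested, so the members did not exceed the background. The 6 called at 12 h were Rrp9, Rrp12, Imp4, Noc4l, Nat10 and Rcl1.

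Rrp9 (ENSMUSG00000041506), a protein of the snoRNP that guides the early cuts, showed the deepest fall of all members. It held 282, 169, 252 and 190 CPM at 0 h, 233 and 150 at 6 h, 187 and 108 at 12 h, 145 and 70.9 at 24 h, 75.2 and 55.3 at 48 h, and 243 and 210 in DMSO. Set 1 libraries ran higher than their set 2 partners, and within each set the level went down at every step. The change was -0.80 ± 0.17 at 12 h (edgeR, adjusted p = 0.00778) and -1.94 ± 0.18 at 48 h (adjusted p = 1.7e-06), or 26.1% of the 0 h level. Rrp12, which helps export both subunits, held 245, 180, 218 and 178 CPM at 0 h, 204 and 157 at 6 h, 159 and 127 at 12 h, 108 and 86.2 at 24 h, 62.7 and 61 at 48 h, and 222 and 181 in DMSO. From 12 h both of its RA libraries lay under the 0 h range, and it ended at -1.79 ± 0.14 (edgeR, adjusted p = 2.68e-07).

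Heatr1, a processome protein that also takes part in transcription by polymerase I, followed another course. It held 294, 295, 370 and 319 CPM at 0 h, 277 and 255 at 6 h, 291 and 236 at 12 h, 117 and 155 at 24 h, 112 and 123 at 48 h, and 277 and 248 in DMSO. It lay at or under the low edge of the 0 h range up to 12 h (-0.26 ± 0.15 at 12 h, edgeR adjusted p = 0.276) and dropped between 12 and 24 h, by 0.96 ± 0.17 on the log2 scale (edgeR, adjusted p = 0.00758), with a further -0.21 ± 0.17 to 48 h that was not called (adjusted p = 0.449). The call between 12 and 24 h was lost without the set term, within set 2 and without replicate 1 of 12 h or of 24 h (up to 0.697). In both DMSO libraries Heatr1 also lay under the 0 h range.

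Imp3, a small partner of the same early snoRNP, was the only member never called at an RA time. It held 37.4, 33.3, 57.8 and 53.9 CPM at 0 h, 37.8 and 30 at 6 h, 30.9 and 35.3 at 12 h, 44.9 and 29.7 at 24 h, 48.4 and 29.9 at 48 h, and 35.6 and 36.8 in DMSO. Its RA libraries overlapped the 0 h range at every time. The 48 h change was -0.30 ± 0.26 (edgeR, adjusted p = 0.378), with 0.37 in set 1 and -0.64 in set 2. Its partner Imp4, by contrast, was called from 12 h, although the difference between the partners was not tested.

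**Figure D2:**
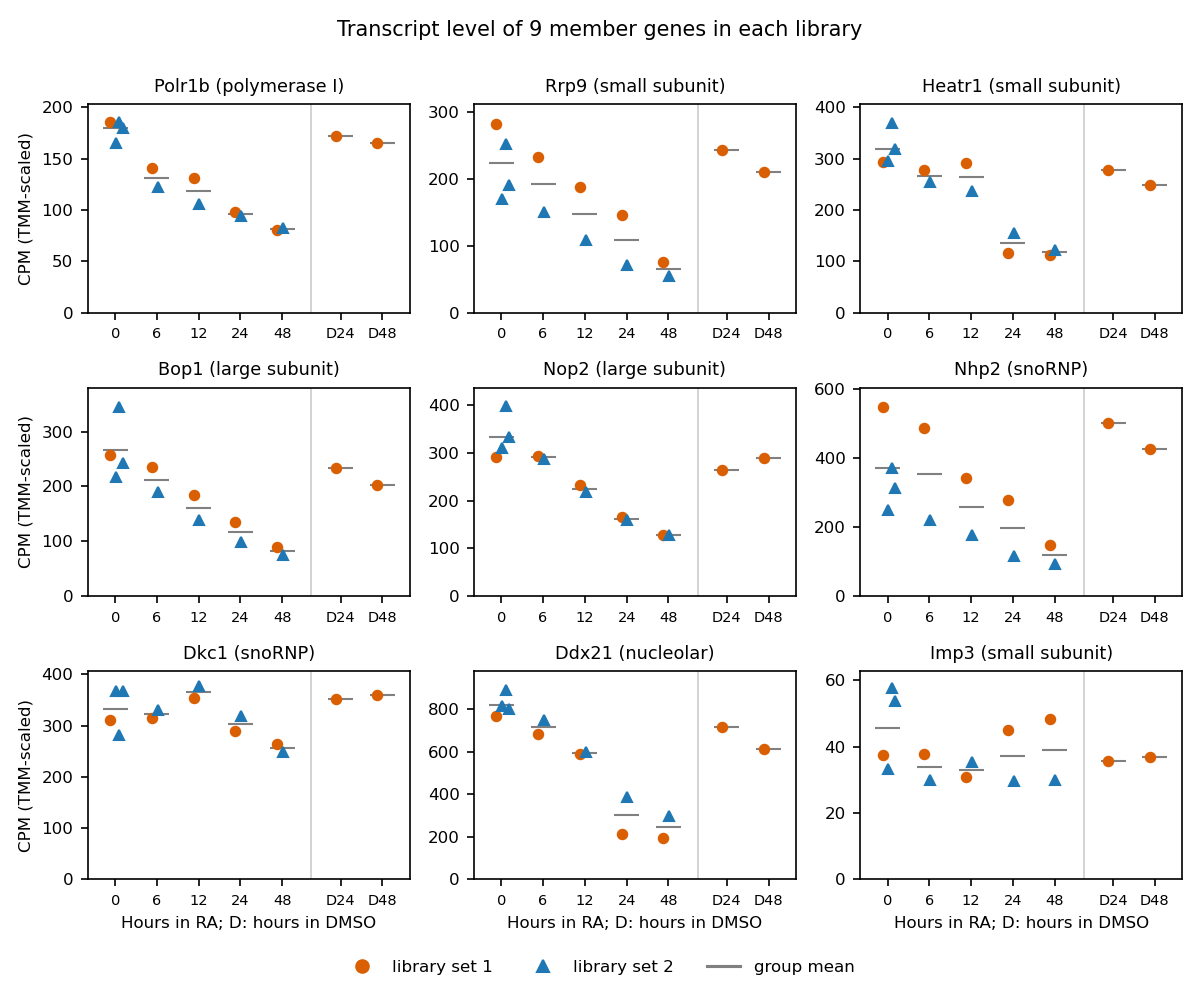
Level (CPM scaled by TMM, linear axis from 0) of 9 members in each of the 14 libraries, against hours in RA and, right of the line, hours in DMSO; circles are set 1, triangles set 2, and bars group means. Polr1b is already low at 6 h, Ddx21 and Heatr1 drop between 12 and 24 h, and Imp3 overlaps its 0 h range at every time.

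Large subunit factors gave 0 calls of 12 at 6 h, 4 at 12 h (Bop1, Pes1, Nop2 and Nop16), and all 12 at 24 and 48 h. At 6 h 2 of the 12 had an unadjusted p under 0.05 (all genes: 2712 of 16155). The class medians were -0.17, -0.35, -0.98 and -1.09. Bop1 and Pes1 form 1 complex with Wdr12 that matures the large subunit RNA. Wdr12 was first called at 24 h.

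Bop1 (ENSMUSG00000022557) held 258, 218, 345 and 242 CPM at 0 h, 236 and 189 at 6 h, 184 and 138 at 12 h, 135 and 98.7 at 24 h, 90.4 and 74.7 at 48 h, and 234 and 202 in DMSO. Its RA libraries lay under the 0 h range from 12 h on, with a change of -0.80 ± 0.18 at 12 h (edgeR, adjusted p = 0.0101) and -1.76 ± 0.19 at 48 h (adjusted p = 6.01e-06). The 48 h DMSO library, at 202 CPM, lay under that range as well. Nop2, a methyltransferase of large subunit RNA whose E-box is printed above, held 292, 311, 399 and 333 CPM at 0 h, 295 and 287 at 6 h, 233 and 218 at 12 h, 165 and 160 at 24 h, 129 and 128 at 48 h, and 265 and 289 in DMSO. Its RA libraries of each time lay close together, left the 0 h range at 12 h (-0.56 ± 0.13, edgeR adjusted p = 0.014) and reached 38.8% of the 0 h level at 48 h (-1.37 ± 0.14, adjusted p = 3.38e-06). Both DMSO libraries of Nop2 also lay under the 0 h range. The 12 h calls of Bop1, Nop2, Rrp9 and Rrp12 were each lost without the set term, within set 2 and without either 12 h library, at an adjusted p of up to 0.213, 0.253, 0.502 and 0.228.

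Mrto4, an assembly factor of the large subunit stalk, held 54.9, 31.6, 56.5 and 33 CPM at 0 h, 43.3 and 27.6 at 6 h, 45.9 and 24.1 at 12 h, 33.2 and 20.3 at 24 h, 22.1 and 14.9 at 48 h, and 52.8 and 49.2 in DMSO. It overlapped the 0 h range up to 24 h and was first called there (-0.91 ± 0.22, edgeR adjusted p = 0.00798), a call lost without the set term, within set 2 and without replicate 2 of 24 h (up to 0.257). Gnl2, a GTPase of large subunit assembly, showed the smallest fall of its class. It held 155, 174, 165 and 188 CPM at 0 h, 135 and 167 at 6 h, 127 and 143 at 12 h, 81.7 and 129 at 24 h, 82.4 and 120 at 48 h, and 152 and 129 in DMSO, and its 48 h change was -0.68 ± 0.13 (edgeR, adjusted p = 0.000874).

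Among the snoRNP proteins 0 of 8 were called at 6 h, 2 at 12 h (Nhp2 and Nolc1), 6 at 24 h and 8 at 48 h. At 6 h 1 of the 8 had an unadjusted p under 0.05 (all genes: 2712 of 16155). The class medians were -0.11, -0.29, -0.68 and -1.08. Within the box H/ACA particle the first call came at 12 h for Nhp2, 24 h for Gar1 and 48 h for Nop10 and Dkc1.

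Nhp2 (ENSMUSG00000001056), which binds box H/ACA RNA, held 547, 250, 370 and 312 CPM at 0 h, 488 and 220 at 6 h, 342 and 176 at 12 h, 277 and 116 at 24 h, 147 and 93.6 at 48 h, and 503 and 426 in DMSO. Its set 1 libraries stood above their set 2 partners throughout, and each set declined at every step. The change was -0.79 ± 0.16 at 12 h (edgeR, adjusted p = 0.00685) and -1.84 ± 0.17 at 48 h (adjusted p = 1.84e-06). Nolc1, a chaperone of both snoRNP kinds, held 460, 563, 657 and 599 CPM at 0 h, 431 and 527 at 6 h, 349 and 371 at 12 h, 201 and 266 at 24 h, 148 and 247 at 48 h, and 427 and 467 in DMSO. It lay under the 0 h range from 12 h (-0.55 ± 0.13, edgeR adjusted p = 0.0154) and ended at -1.46 ± 0.14 (adjusted p = 1.93e-06). Its 24 h DMSO library, at 427 CPM, lay under that range as well. The 12 h calls of Nhp2 and Nolc1 were lost without the set term, within set 2 and without replicate 2 of 12 h, and that of Nhp2 also without replicate 1, at an adjusted p of up to 0.711 and 0.348.

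Dkc1 (ENSMUSG00000031403), the pseudouridine synthase that Nhp2, Gar1 and Nop10 accompany, moved least in its class. It held 312, 367, 282 and 367 CPM at 0 h, 316 and 330 at 6 h, 355 and 377 at 12 h, 289 and 319 at 24 h, 265 and 248 at 48 h, and 352 and 360 in DMSO. Up to 24 h it did not leave the 0 h range downward, and at 48 h both libraries lay just below it. The 48 h change of -0.35 ± 0.13 was called (edgeR, adjusted p = 0.0338) but was lost in 11 of the alternatives. Gar1, another partner, held 141, 86.8, 110 and 94.3 CPM at 0 h, 139 and 78.8 at 6 h, 94.6 and 76.3 at 12 h, 93.8 and 55.8 at 24 h, 58.7 and 49.7 at 48 h, and 130 and 127 in DMSO. It was first called at 24 h (-0.69 ± 0.15, edgeR adjusted p = 0.00431) and stood at -1.11 ± 0.15 at 48 h. The 24 h call of Gar1 was lost without the set term and without replicate 2 of 24 h (up to 0.282). The remaining partner, Nop10, was first called at 48 h (-1.10 ± 0.20, adjusted p = 0.000479), a call lost without the set term (0.112).

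Of the box C/D proteins, Fbl, the methyltransferase, held 116, 49.9, 53.4 and 50.3 CPM at 0 h, 92.8 and 53.4 at 6 h, 66.7 and 53.5 at 12 h, 74.8 and 36.7 at 24 h, 45.5 and 27.5 at 48 h, and 102 and 92.3 in DMSO. Its number 1 library stood far above the others at 0 h, and at 48 h both libraries lay below all 0 h libraries. The 24 h change of -0.48 ± 0.17 (edgeR, adjusted p = 0.044) was lost in 10 alternatives, and the 48 h change of -1.05 ± 0.17 (adjusted p = 0.000202) only without the set term (adjusted p = 0.161). Nop56 held 272, 339, 267 and 312 CPM at 0 h, 274 and 305 at 6 h, 223 and 280 at 12 h, 137 and 222 at 24 h, 171 and 188 at 48 h, and 268 and 284 in DMSO. Nop58 held 412, 519, 474 and 568 CPM at 0 h, 387 and 479 at 6 h, 364 and 495 at 12 h, 216 and 353 at 24 h, 195 and 327 at 48 h, and 383 and 362 in DMSO. In RA both libraries of these scaffold proteins lay under their 0 h ranges only from 24 h and went little lower after that. Nop58 also lay under its 0 h range in both DMSO libraries. Nop56 stood at -0.68 ± 0.14 at 24 h (edgeR, adjusted p = 0.00287) and -0.66 ± 0.14 at 48 h, and Nop58 at -0.71 ± 0.13 (adjusted p = 0.00133) and -0.83 ± 0.13. Within set 2 both 24 h calls were lost, that of Nop58 also without the set term (adjusted p of up to 0.144 and 0.082), and the 48 h call of Nop56 was lost without replicate 2 of 48 h (0.0705).

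The 4 proteins of several steps were called at 24 and 48 h and not before. Their median changes were -0.12, -0.31, -0.85 and -1.22. At 6 h 0 of the 4 had an unadjusted p under 0.05 and at 12 h 3 had (all genes: 2712 and 4515 of 16155).

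Ddx21 (ENSMUSG00000020075), an RNA helicase at polymerase I genes and snoRNAs, held 769, 816, 889 and 800 CPM at 0 h, 682 and 751 at 6 h, 591 and 600 at 12 h, 216 and 387 at 24 h, 195 and 299 at 48 h, and 717 and 613 in DMSO. It was under the 0 h range at every RA time and also in both DMSO libraries. In RA it dropped most between 12 and 24 h, by 1.02 ± 0.18 on the log2 scale (edgeR, adjusted p = 0.00816). That call was lost without the set term, within set 2, without either 12 h library and without replicate 1 of 24 h (up to 0.6). Its 48 h change was -1.67 ± 0.17 (adjusted p = 3.74e-06), or 31.4% of the 0 h level. Ncl, nucleolin, held 3180, 3064, 3609 and 3092 CPM at 0 h, 3135 and 2889 at 6 h, 2928 and 2739 at 12 h, 1894 and 1784 at 24 h, 1268 and 1511 at 48 h, and 2960 and 2868 in DMSO. It left the 0 h range at 12 h with a change of -0.19 ± 0.12 that was not called (edgeR, adjusted p = 0.31) and was lower by 1.22 ± 0.12 at 48 h (adjusted p = 3.43e-06). In both DMSO libraries Ncl also lay under the 0 h range.

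Npm1, nucleophosmin, a histone and ribosome chaperone, held 1176, 1370, 1945 and 1594 CPM at 0 h, 1078 and 1320 at 6 h, 936 and 1345 at 12 h, 697 and 870 at 24 h, 506 and 749 at 48 h, and 1112 and 921 in DMSO. Its 0 h range was wide, and both RA libraries lay under it from 24 h, with a 48 h change of -1.18 ± 0.14 (edgeR, adjusted p = 1.54e-05). Both DMSO libraries lay under that range too. Npm1 has processed copies in the mouse genome, so its counts are uncertain. Mybbp1a, which acts in precursor processing and transcription, held 1376, 1191, 1309 and 1103 CPM at 0 h, 1254 and 1099 at 6 h, 1127 and 940 at 12 h, 720 and 692 at 24 h, 554 and 535 at 48 h, and 1306 and 1117 in DMSO. Its change of -1.23 ± 0.11 at 48 h (edgeR, adjusted p = 1.71e-06) had the smallest standard error of the members named here.

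The question of which step fell first has no clear answer by class. At 12 h the class medians lay within -0.29 to -0.35, while single small subunit factors ranged from -0.80 to -0.02 and large subunit factors from -0.80 to -0.14. At 24 h the class medians were further apart. They were -0.63 for polymerase I, -0.68 for snoRNP, -0.85 for several-step, -0.93 for small subunit and -0.98 for large subunit members. The first RA time with a call was 6 h for 1 polymerase I subunit, 12 h for 6 small subunit, 4 large subunit and 2 snoRNP members, and 24 h for 2 polymerase I, 9 small subunit, 8 large subunit, 4 snoRNP and 4 several-step members. It was 48 h for Dkc1 and Nop10. Differences between classes were not tested, and a first call depends on each gene's spread as well as on its change.

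**Figure D3:**
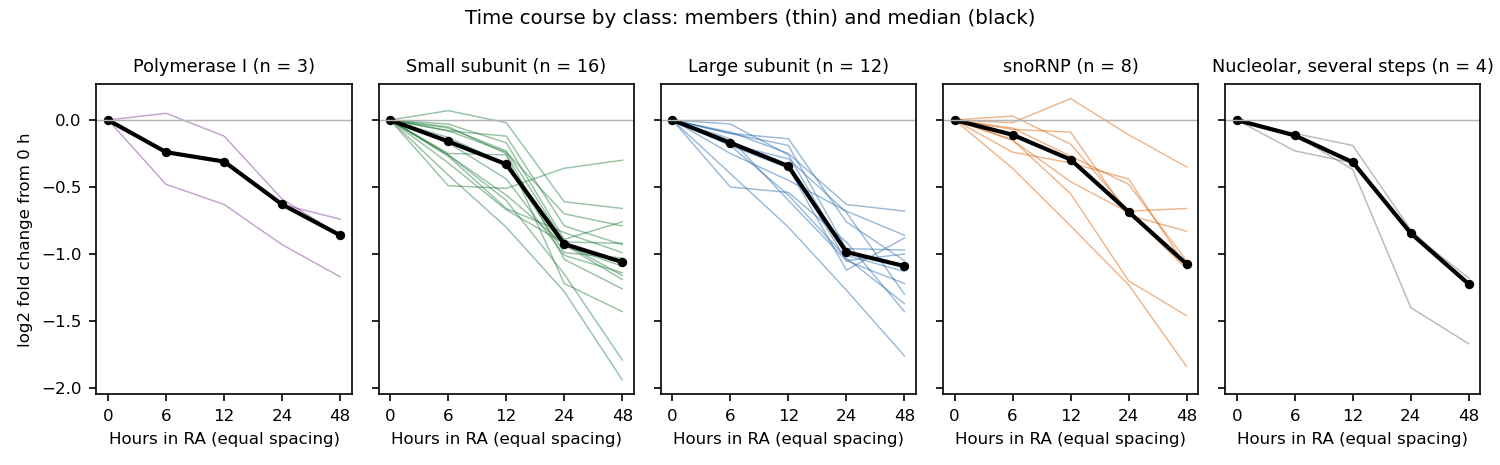
Log2 fold change from 0 h against hours in RA (times equally spaced, not to scale) for the members of each class (thin lines, n in each title) and their median (black). The medians lie between -0.11 and -0.24 at 6 h, between -0.29 and -0.35 at 12 h and between -0.63 and -0.98 at 24 h. They reach -0.86 to -1.22 at 48 h.

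Among the direct steps between neighbouring times, that from 12 to 24 h was the largest by the median of the members. From 6 to 12 h 0 members were called (all genes: 0% lower and 0.0186% higher), with a median of -0.17 and 0 called by DESeq2. At an unadjusted p under 0.05 there were 6 for that step (all genes: 850 of 16155). From 12 to 24 h 20 of 43 fell and 0 rose (all genes: 2.73 and 3.53%), among them 10 of 16 small subunit, 5 of 12 large subunit, 2 of 8 snoRNP, 3 of 4 several-step and 0 of 3 polymerase I members, with a median of -0.50. From 24 to 48 h 4 fell and 0 rose (all genes: 4.62 and 6.4%), namely Rrp9, Rrp12, Nhp2 and Ebna1bp2, with a median of -0.22. The 12 to 24 h count was 0 without replicate 1 of 12 h or of 24 h, 1 without replicate 2 of 12 h, and 0 within set 2 or without the set term.

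Of the 13 members called by 12 h, 3 were called again between 12 and 24 h, against 17 of the other 30. The medians for that step were -0.45 and -0.60. The 12 h libraries both chose the 13 and enter this step, so the contrast is a description only. In DMSO against 0 h the medians were -0.24 for the 13 and -0.06 for the other 30, with 0 called in each group. The 0 h libraries also took part in choosing the 13, and no DMSO library was made at 12 h. The E-box was in 3 of 11 promoter windows of the 13 and in 5 of 28 windows of the others.

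**Figure D4:**
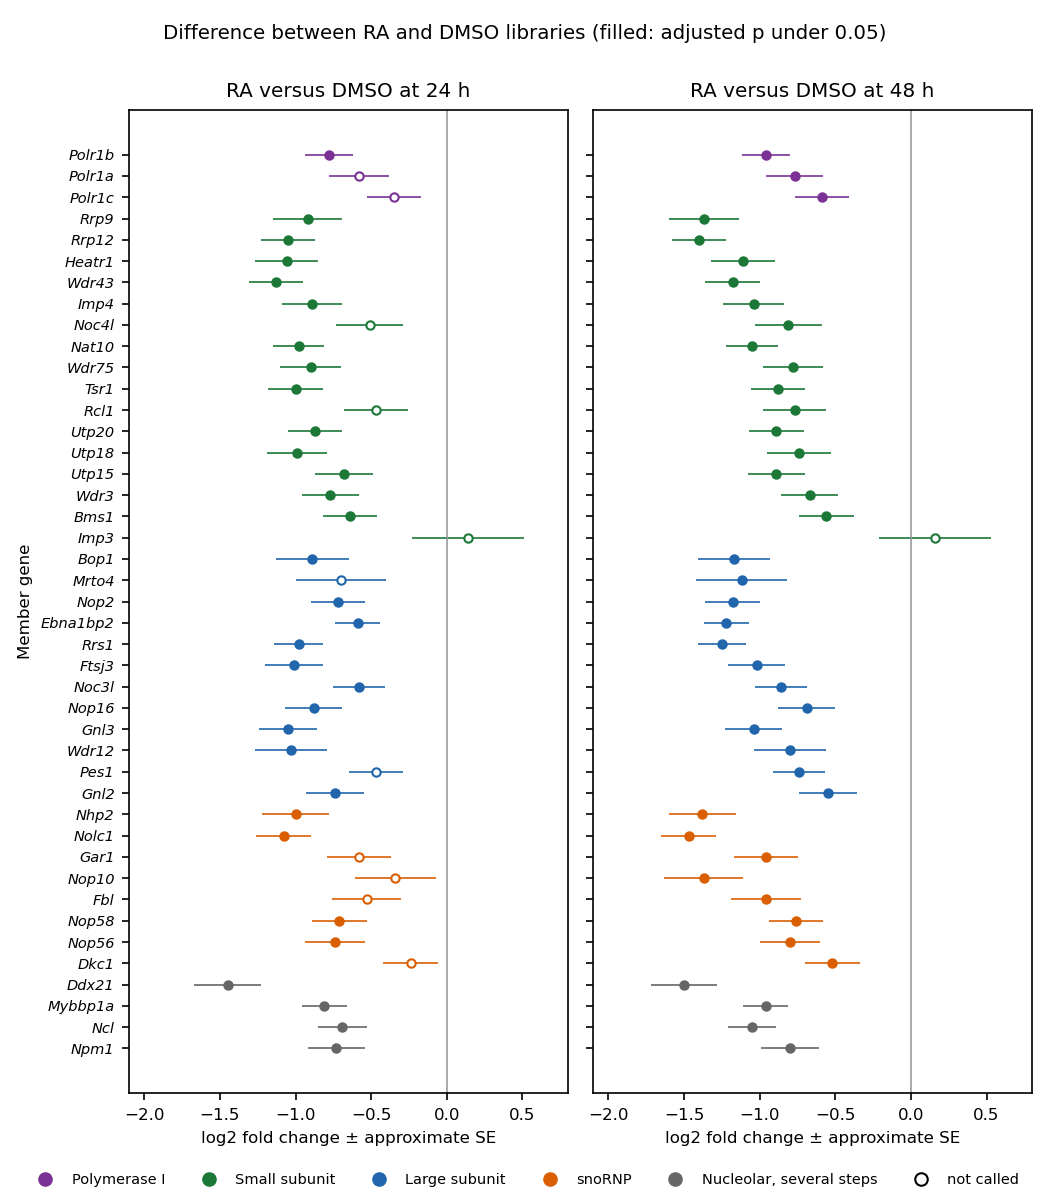
Log2 fold change of RA against DMSO at 24 h (left) and 48 h (right) for each member, with approximate standard error; filled points are called at an adjusted p under 0.05 and colours mark the class. Called are 32 members at 24 h and 42 at 48 h, and Imp3 alone lies right of 0.

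Comparison with solvent asks whether time in culture gave the same fall. At 24 h 32 of 43 members were lower and 0 higher in RA than in DMSO (all genes: 4.61 and 5.83%). At 48 h 42 were lower and 0 higher (11.5 and 12.6%), with medians of -0.77 and -0.96 against 0 for all genes. By class the 24 h count was 1 of 3 polymerase I, 13 of 16 small subunit, 10 of 12 large subunit, 4 of 8 snoRNP and 4 of 4 several-step members. Ddx21 differed most at both times, by -1.45 ± 0.22 (edgeR, adjusted p = 0.00133) and -1.50 ± 0.22 (adjusted p = 0.000401), and Nolc1 stood at -1.08 ± 0.18 and -1.47 ± 0.18. Without the set term the 24 h calls of Ddx21 and Nolc1 were lost (adjusted p = 0.0807 and 0.202). The 48 h calls against DMSO of Dkc1, Gnl2 and Polr1c were lost in 15, 11 and 8 of the alternatives. Imp3 stood at 0.14 ± 0.37 and 0.16 ± 0.37. Within set 1, which holds both DMSO libraries, the RA library lay below the DMSO library for 42 of 43 members at each time, against 50.4 and 50.5% of all genes.

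DMSO itself gave 0 calls against 0 h (all genes: 0%) and 0 by DESeq2, with a median of -0.10 against -0.03 for all genes. At an unadjusted p under 0.05 there were 2 members (all genes: 1263 of 16155). Each DMSO library nonetheless lay below the only 0 h library of its set for 37 of 43 members, against 51.4 and 50.6% of all genes. The change of the RA effect from 24 to 48 h gave 0 called members (all genes: 0.0186% lower and 0.0433% higher), with a median of -0.18 and 0 by DESeq2. For that change 2 members had an unadjusted p under 0.05 (all genes: 1585 of 16155). With 1 DMSO library a time, the fit assumes that it varies like the other groups. Without the set term the counts were 4 at 24 h and 17 at 48 h, without replicate 1 of 24 h the first was 13, and without replicate 1 or 2 of 48 h the latter was 27 or 29.

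Other genes of ribosome production, a list of 140 factors of which 136 were tested, were mostly called lower by 24 h. Of the 136, 1 fell at 6 h, 30 at 12 h, 101 at 24 h and 122 at 48 h, with medians of -0.09, -0.24, -0.63 and -0.86. Over all genes tested the shares called lower were 1.51, 5.31, 13.5 and 22.9%, and the 6 h count did not exceed that share. By class 8 of 11 polymerase I factors, 42 of 43 small subunit, 46 of 48 large subunit, 10 of 11 snoRNP and 16 of 23 exosome and RNase MRP genes were lower at 48 h. Against DMSO 49 and 87 were lower at 24 and 48 h (all genes: 4.61 and 11.5%).

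Rrn3, the factor that brings polymerase I to its promoter, fell furthest in this list. It held 601, 432, 576 and 528 CPM at 0 h, 558 and 404 at 6 h, 462 and 324 at 12 h, 220 and 185 at 24 h, 164 and 132 at 48 h, and 565 and 551 in DMSO. The change was -0.55 ± 0.13 at 12 h (edgeR, adjusted p = 0.0147) and -1.95 ± 0.14 at 48 h (adjusted p = 1.81e-07), with 24 and 48 h levels far under the 0 h range. The 12 h call was lost without the set term, within set 2 and without either 12 h library (up to 0.383). The 1 gene of this list called lower at 6 h was Utp14a, a processome protein, at -0.51 ± 0.13 (adjusted p = 0.0295), a call lost in 8 alternatives (up to 0.518). After Rrn3, the next of its class at 48 h was the subunit Polr1h at -1.26 ± 0.15. The largest falls elsewhere at 48 h were Wdr46 (-1.57 ± 0.13) and Tbl3 (-1.45 ± 0.19) for the small subunit and Wdr74 (-1.54 ± 0.17) and Nle1 (-1.52 ± 0.18) for the large subunit. Tcof1 (-1.43 ± 0.13) and Ruvbl2 (-1.29 ± 0.17) led the genes placed here in the snoRNP class, a placing that does not exclude other roles. Exosc5 (-1.63 ± 0.18) and Pop1 (-1.38 ± 0.15) led the exosome and RNase MRP genes.

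A single gene of that list was called higher, and it and Utp14a are named here after their values were seen. Rpp25, a subunit of RNase P and RNase MRP, held 47.8, 40.8, 48.3 and 44.5 CPM at 0 h, 111 and 94 at 6 h, 138 and 117 at 12 h, 204 and 97.8 at 24 h, 98.4 and 47.5 at 48 h, and 43.2 and 43 in DMSO. It was above the 0 h range from 6 to 24 h, and at 48 h its replicate 2 was back within that range. The change was 1.04 ± 0.20 at 6 h (edgeR, adjusted p = 0.0059), 1.53 ± 0.20 at 24 h (adjusted p = 9.89e-05) and 0.48 ± 0.21 at 48 h, the last not called (adjusted p = 0.0681). Against DMSO it was higher at both times, by 1.99 ± 0.32 at 24 h (adjusted p = 0.00169) and 0.95 ± 0.30 at 48 h (adjusted p = 0.0365). Its 6 h call was lost without the set term and without replicate 2 of 6 h (up to 0.369). Against DMSO the 24 h call was lost without the set term (0.0968), and the 48 h call without the set term, replicate 2 of 0 h or replicate 1 of 48 h (up to 0.413).

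Markers of cell identity also changed over the RA course. All 8 markers of embryonal carcinoma cells were present. Their summed level was 4540 to 5883 CPM at 0 h, 4442 to 5191 at 6 h and 3901 to 4218 at 12 h. It was 2734 to 3222 at 24 h and 1317 to 2150 at 48 h, with 5815 and 6303 in DMSO. The 10 extraembryonic endoderm markers summed to 647 to 1066 CPM at 0 h. Their sums at 6 h (715 to 1173) and 12 h (774 to 1235) overlapped that range. They were 1379 to 2348 at 24 h and 5437 to 7889 at 48 h, with 961 and 1008 in DMSO. Sums over 8 fibroblast markers were 16.1 to 33.7 CPM at 0 h and 73.6 to 113 at 48 h, and over 5 neural markers 196 to 298 and 126 to 157. Over 6 blood and endothelial markers they were 24.9 to 34.5 at 0 h, 50.9 to 83.5 at 6 h and 42.3 to 61.1 at 48 h, with Hba-a1 and Hbb-bt at 0 throughout. The part of these changes in the members' fall was not tested.

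By the same RefSeq annotation 15 of the 43 members overlap another gene, among them Bop1, Dkc1, Heatr1, Mybbp1a, Nhp2, Nop56 and Polr1a. No source used here gives the strand option of the read counting, so reads of such partners may enter or be missing from these counts.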

How the data were processed

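For each of the 14 mRNA libraries the authors deposited 1 table of raw counts of reads by Ensembl gene, with no normalization. The tools listed for mRNA, per the submitters' processing notes, include HTSeq, DESeq and TopHat2 2.0.7, and the build is mm9. Their options, the strand setting included, are not given in the sources used here. Symbols were taken from a later annotation, which gave one to 31841 of 36814 genes. The 5 entries for reads given to no gene held 72.52 to 76.78% of each table and were left out.

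They were modelled in R 4.3.3 with edgeR 4.0.16, as 1 quasi-likelihood fit with 1 term per group and 1 for the library set, TMM scaling (factors 0.9291 to 1.0952), robust estimation and edgeR's filter for low counts, which kept 16155 genes. The sets were split at the widest gap in the no-feature share, after the data were examined. P-values are two-sided and Benjamini-Hochberg adjusted over all genes tested. An approximate standard error is the size of the log2 change over the root of its F statistic, and groups of 1 or 2 libraries are assumed to vary like the others.

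The members, their classes, the other gene lists and the comparisons were chosen with earlier results of these data known. Members given library by library are all polymerase I subunits, in each other class the 3 with the largest and the 1 with the smallest fall at 48 h, and Ddx21, Ncl, Npm1, Fbl, Nop56, Nop58, Dkc1 and Nop2. Of the other list, the 2 largest falls per class at 48 h are named.

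Across genes, same-numbered libraries deviated together in different groups (Pearson's r of 0.747 to 0.904 over 10 pairs of groups). The numbers mark the same split as the sets, so paired cultures and the set difference cannot be told apart. Pairs of 0 h libraries within set 2 gave a chi-square per degree of freedom of 10.8 to 17.96, and pairs across sets 34.51 to 66.92, so no library was counted as a duplicate.

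On simulated data of 16155 genes with 100 changed per fold size, the fit of 48 h against 0 h recovered 9% of 1.5-fold and 52% of 2-fold changes and called 5 unchanged genes. For RA against DMSO at 48 h it recovered 2% and 25% and called 3. Alternatives were a fit without the set term, the replicate block, set 2 alone, RLE scaling, no TMM scaling, DESeq2 1.42.0, no filter, at least 1 CPM in 4 libraries, and each library left out. Promoter windows, start positions and gene overlaps come from RefSeq GRCm38.p6. ChIP regions, listed on mm9, were not used here. Plots were drawn with matplotlib 3.10.9 under Python 3.11.15.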

Additional observations from a re-analysis of the deposited data

Results flagged for a closer look

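At 0 h the number 1 library stood apart from the other 3 libraries in 2 members, by Dixon's test for a single far value at 4 libraries. For Fbl, the box C/D methyltransferase, it held 116 CPM against 49.9, 53.4 and 50.3. For Rrs1, a large subunit assembly factor, it held 179 CPM against 124, 126 and 131. Chance flags about 1 group in 20 under this test, and 43 members were looked at. The number 1 library is also the only 0 h library of set 1, so the library and the set cannot be told apart. In DMSO, also set 1, Fbl held 102 and 92.3 CPM and Rrs1 165 and 176. Without that library the 24 h call of Fbl was lost, while its 48 h call was kept.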

How the results depend on the processing

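Without the set term 0 members were called at 6 h, 0 at 12 h, 0 from 12 to 24 h, 0 from 24 to 48 h, and 4 and 17 for RA against DMSO at 24 and 48 h. Within set 2 alone, which has no DMSO library, the counts at 6 h, 12 h, from 12 to 24 h and from 24 to 48 h were 0 each. The replicate block over numbers 1 and 2 of 0 h and RA gave 0 at 6 h and 8 from 24 to 48 h, and moved no other count by over 1.5 times. With at least 1 CPM in 4 libraries, 2 members were called from 24 to 48 h. Scaling by RLE, no TMM scaling, no filter and DESeq2 with the set term moved no count of called members by over 1.5 times. With each library left out in turn the counts ran from 0 to 1 at 6 h, 0 to 17 at 12 h, 36 to 40 at 24 h, 40 to 42 at 48 h, 0 to 26 from 12 to 24 h, 0 to 8 from 24 to 48 h, 13 to 33 and 27 to 42 for RA against DMSO at 24 and 48 h, and 0 to 0 from 6 to 12 h, for DMSO against 0 h and for the change of the RA effect. Leaving out a DMSO library gives no value for its own comparison. Of 85 called results of single members 37 kept their call in every setting that could be run, and 0 turned direction. These 85 cover only the members named by rule, at the RA times against 0 h and for RA against DMSO. Those members were partly chosen by the size of their fall, so the share does not describe all members. The cause of the lost calls was not tested. In the simulated data, with 100 genes changed per fold size, most 1.5-fold changes were missed. In the real data 3706 genes were called lower and 4175 higher at 48 h, and members with falls under 2-fold were called. The simulated recovery therefore does not measure how many falls were missed among the members. A first call marks when a fall became detectable.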
